A study of Gallus gallus with 8 samples.

Results

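The proteasome is the multi-subunit protease that degrades proteins tagged with ubiquitin, and its genes were followed in engineered chick muscle between 3 weeks and 1 week of differentiation. Its genes were taken as every row of the count table whose symbol starts with PSMA, PSMB, PSMC, PSMD, PSME, PSMF or PSMG followed by a digit, which gave 38 of 17775 genes. One of them, *PSMC3IP*, a gene known for a role in meiotic recombination, matches the letters only and is no proteasome subunit. It is kept in the count of 38 and left out of the classes below, which hold 37 genes.

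In the barrel-shaped core particle, outer alpha rings gate the entry and inner beta rings carry the proteolytic sites. A regulatory cap docks on the core. Its base holds a ring of ATPases that unfold the substrate, and its lid holds the enzyme that removes ubiquitin. Other activators can take the place of the cap, and dedicated chaperones assist the assembly of core and cap without staying in the finished particle. In skeletal muscle this protease takes part in the turnover of contractile proteins and is known for its role in muscle wasting.

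RNA was sequenced from 8 tissues of *Gallus gallus*. Myoblasts from the thighs of day 10 (E10) embryos were pre-plated to enrich them, grown on micromolded gelatin hydrogels crosslinked with transglutaminase, and switched to low-serum differentiation medium without motor neurons. Tissues were lysed at day 21 of differentiation (week 3, n = 3, tissues 3-1 to 3-3) or at day 7 (week 1, n = 5, tissues 1-1 to 1-5). These are primary cultures, no genetic change is named for them, and neither the labels nor the methods say whether the weeks shared a cell harvest, so harvest and week cannot be told apart.

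Total estimated counts per tissue were 15447904 to 18902561 at week 3 and 14368710 to 16545497 at week 1. The 10 highest genes took 8.35% to 8.45% of the counts at week 3 and 9.87% to 11.2% at week 1. The 8 of 11 listed myotube markers that were found, among them *ACTA1*, *DES* and *TNNT3*, held 1.74% to 1.76% of the counts at week 3 and 1.87% to 2.51% at week 1, and 2 of the 8, *ACTA1* and *ACTN2*, were called lower at week 3 (edgeR adjusted p below 0.05). The 8 fibroblast markers found of 9 held 2.32% to 2.41% at week 3 and 2.10% to 3.08% at week 1. Of these, 4 were called lower at week 3, with log2 fold changes of -1.60 for *PDGFRA*, -0.94 for *LUM*, -0.85 for *COL3A1* and -0.32 for *DCN*, and *POSTN* was called higher at 0.49. The 6 macrophage markers held 0.00164% to 0.00179% at week 3 and 0.00437% to 0.00667% at week 1, and 4 of the 5 tested were lower at week 3. The 5 endothelial markers held 0.00257% to 0.00298% at week 3 and 0.00335% to 0.00429% at week 1, and the 4 Schwann cell markers 0.00122% to 0.00153% at week 3 and 0.000888% to 0.00132% at week 1. The Schwann cell marker *SOX10* had 1 to 8 counts in any tissue. The part of these marker differences in the proteasome values was not tested. In bulk RNA a change in the number of cells of a type and a change in RNA per cell cannot be told apart. Tissue 1-1 stood apart from the other 4 week 1 tissues: without it the number of genes passing an adjusted p of 0.05 was 5498, against 3367 with it.

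Levels are given in FPKM-UQ, the authors' normalized value, which in these data is an estimated count, with 1 added, scaled by a single factor for each tissue. Gene length does not enter it, so it was compared only within a gene across tissues. Differences are log2 fold changes of week 3 over week 1 from edgeR's quasi-likelihood test on the estimated counts. A gene was called higher or lower at a Benjamini-Hochberg adjusted p below 0.05 over the 14311 genes tested. All 38 proteasome genes passed the filter on low counts, with 94 to 7207 estimated counts in any tissue, and with at least 234 once *PSMC3IP* is left out.

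Proteasome genes differed little between the weeks, and most log2 fold changes lay slightly above 0. Of the 38 genes, 8 were called (21.1%), against 23.5% of all genes tested. Of the called genes, 7 were higher at week 3, where 11.5% of all genes were, and 1 was lower, where 12% of all genes were. The genes called higher were the core gene *PSMA1*, the cap genes *PSMC3*, *PSMC5*, *PSMC6* and *PSMD7*, and the core chaperones *PSMG1* and *PSMG2*. The gene called lower was the core gene *PSMA5*. The share of called genes was thus no larger than in the background. The log2 fold change was above 0 for 31 of the 38 (81.6%), against 49.1% of all genes, and its median was 0.10, against -0.01 over all genes. The sizes were small: the median absolute log2 fold change was 0.12 for the proteasome genes and 0.22 for all genes, and 27 of the 38 lay under 0.2. None of the 38 passed a fold of 1.5, which 17.9% of all genes did. Under the study's own rule, an unadjusted p below 0.05 with a fold above 1.5, no proteasome gene was called with edgeR, DESeq2 or limma, against 14.6% of all genes with edgeR. By unadjusted p alone edgeR put 13 of the 38 below 0.05, and 5136 of all 14311 genes tested.

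**Figure D1:**
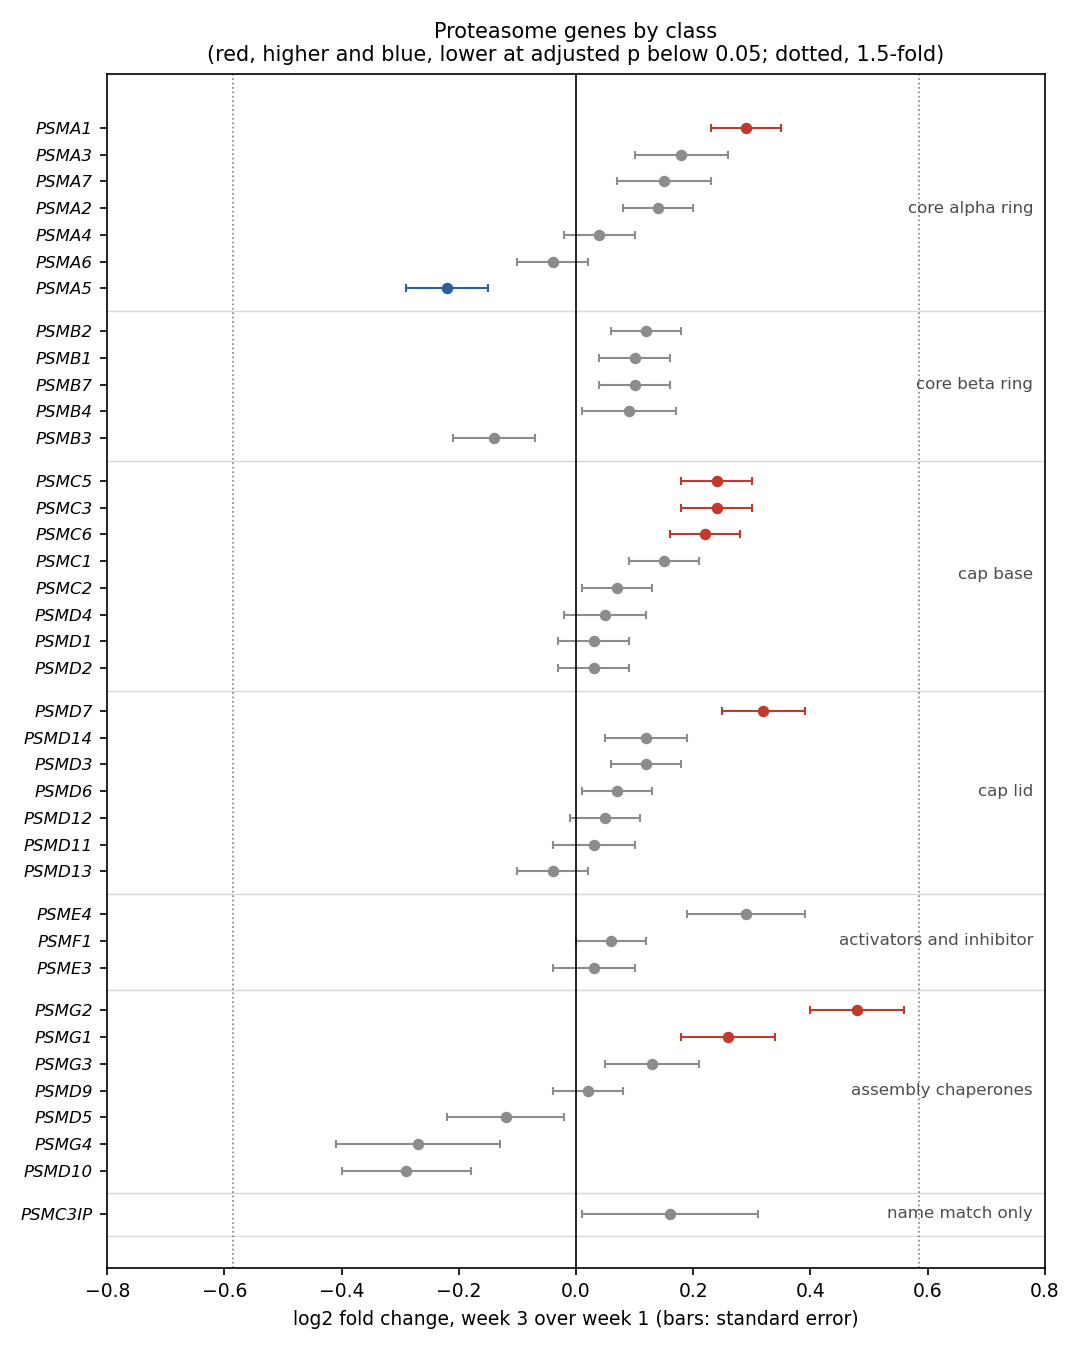
The log2 fold change of week 3 over week 1 (horizontal axis) is plotted for each of the 38 genes with its standard error, grouped by class; red marks genes called higher and blue the gene called lower at an adjusted p below 0.05, and dotted lines mark a fold of 1.5. All 38 points lie between -0.29 and 0.48, inside the dotted lines, and 31 lie right of 0.

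The weeks were also set apart by level. In FPKM-UQ, all 3 week 3 tissues lay above all 5 week 1 tissues for 17 of the 38 genes, where 16.2% of all genes tested did so. No proteasome gene had all week 3 tissues below all week 1 tissues, which 13.6% of all genes did; in either direction 29.9% of all genes did not overlap. The 17 were 5 of 12 core genes, 10 of 15 cap genes and 2 of 10 activator, inhibitor and chaperone genes. They included the 7 genes called higher and 10 that were not called.

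The alpha ring of the core was represented by *PSMA1* to *PSMA7*. Its 7 genes had a median log2 fold change of 0.14, with 1 called higher and 1 called lower (28.6%, against 23.5% of all genes tested). *PSMA1* (chromosome 5, 10668250 to 10675824, minus strand, GRCg6a) had FPKM-UQ values of 176, 184 and 191 in the week 3 tissues and 154, 149, 149, 151 and 143 in the week 1 tissues. No value of one week fell in the range of the other, and means were 184 ± 7.86 at week 3 (SD, n = 3) and 149 ± 4.1 at week 1 (SD, n = 5). The log2 fold change was 0.29 (SE 0.06, edgeR adjusted p = 0.0048), and the call was made in all 8 fits that left out 1 tissue. Its annotated span shares 704 bases with *COPB1* on the same strand, and its estimated counts include fractions of reads, so some reads may belong to either gene.

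*PSMA5* (chromosome 26, 1212369 to 1221115, minus strand), another outer ring subunit, went the other way. Its FPKM-UQ values were 194, 198 and 205 at week 3 and 201, 226, 234, 245 and 239 at week 1. Only tissue 1-1, with 201, fell within the week 3 range. Means were 199 ± 5.88 at week 3 (SD, n = 3) and 229 ± 17.1 at week 1 (SD, n = 5), and the log2 fold change was -0.22 (SE 0.07, edgeR adjusted p = 0.047). This call was the least stable: it was made in 1 of 8 fits that left out a tissue, the one without 1-1 (log2 fold change -0.26, edgeR adjusted p = 0.00023). It was also lost with upper-quartile factors, library size alone, no further filter and limma. *PSMA5* overlaps *SYPL2* on the opposite strand over 253 bases, and whether counting used strand is not given in the sources used here. Mean estimated counts, which unlike FPKM-UQ are not scaled between tissues, were 4488 at week 3 and 4902 at week 1 for *SYPL2*. For *PSMA5* the unscaled means were 3455 at week 3 and 3429 at week 1. The estimated counts of *PSMA5* include fractions of reads, and how many reads came from the overlap was not tested.

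Because 1 factor per tissue applies to every gene, the ratio of *PSMA1* to *PSMA5* within each tissue does not depend on the scaling between tissues. This pair was picked after its values were seen, so the ratio is a description with no test. It was 0.908, 0.929 and 0.933 at week 3 and 0.767, 0.662, 0.635, 0.615 and 0.599 at week 1. As length does not enter the values, the ratio is no measure of relative abundance, but its change from tissue to tissue can be read: every week 3 tissue was higher, and 1-1 was the nearest week 1 tissue.

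The remaining 5 alpha genes were not called. *PSMA3*, *PSMA7* and *PSMA2* had log2 fold changes of 0.18 (SE 0.08), 0.15 (SE 0.08) and 0.14 (SE 0.06), with edgeR adjusted p values of 0.12, 0.19 and 0.13. These 3 were called higher when tissues were scaled by library size alone. *PSMA4* and *PSMA6* were at 0.04 (SE 0.06) and -0.04 (SE 0.06). *PSMA4* was almost constant among week 3 tissues, at 159.8, 162 and 161, and varied from 141 in tissue 1-1 to 159.6 at week 1.

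In the beta rings, the 5 genes found were *PSMB1*, *PSMB2*, *PSMB3*, *PSMB4* and *PSMB7*. None was called by edgeR, where 23.5% of all genes tested were, none had an unadjusted p below 0.05, and DESeq2 called none. Of the subunits that carry a proteolytic site, only *PSMB7*, the trypsin-like one, was among the rows, and *PSMB5* and *PSMB6* were not analysed here. *PSMB7* had 233, 248 and 246 FPKM-UQ at week 3 and 207, 232, 221, 228 and 231 at week 1. The lowest week 3 tissue lay just above the highest week 1 tissue, and the means of 242 ± 7.81 at week 3 (SD, n = 3) and 224 ± 10.2 at week 1 (SD, n = 5) gave a log2 fold change of 0.10 (SE 0.06, edgeR adjusted p = 0.27).

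The beta subunits without a proteolytic site split in sign. *PSMB1*, *PSMB2* and *PSMB4* had log2 fold changes of 0.10, 0.12 and 0.09. *PSMB3* had -0.14 (SE 0.07, edgeR adjusted p = 0.18), with 122, 126 and 131 FPKM-UQ at week 3 and 119.7, 143, 137, 147 and 143 at week 1. Its weeks overlapped only through tissue 1-1, and without that tissue the log2 fold change was -0.19 with an edgeR adjusted p of 0.0054. *PSMB3* and *PSMA5* were the core genes whose week 3 tissues all lay below the other 4 week 1 tissues.

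Of the 15 cap genes, 4 were called (26.7%, against 23.5% of all genes tested), all higher at week 3, and 14 of 15 had a log2 fold change above 0, with a median of 0.07. In the base, 3 of the 5 ATPase genes found were called. *PSMC3* (chromosome 5, 23108352 to 23119487, plus strand) had 279, 285 and 292 FPKM-UQ at week 3 and 239, 230.1, 244, 249.9 and 228 at week 1, a log2 fold change of 0.24 (SE 0.06, edgeR adjusted p = 0.011). For this ATPase the lowest week 3 value was above the highest week 1 value.

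*PSMC5* (chromosome 27, 4119715 to 4123305, plus strand) moved by as much. Its FPKM-UQ values were 177, 197 and 191 at week 3 and 157, 149, 158, 159.7 and 163 at week 1, with a log2 fold change of 0.24 (SE 0.06, edgeR adjusted p = 0.014). *PSMC6* (chromosome 5, 58368967 to 58380738, plus strand) had 372, 361 and 366 at week 3 and 322, 311, 305, 329 and 292 at week 1, with a log2 fold change of 0.22 (SE 0.06, edgeR adjusted p = 0.024). The weeks did not overlap for either gene. Leaving out tissue 3-2 or tissue 3-3 ended the calls of *PSMC3*, *PSMC5* and *PSMC6*, with edgeR adjusted p values of 0.053 to 0.088, and the call of *PSMC6* was also lost without tissue 3-1 or 1-3.

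The other ATPases, *PSMC1* and *PSMC2*, were not called, at 0.15 (SE 0.06) and 0.07 (SE 0.06). For both, every week 3 tissue lay above every week 1 tissue. *PSMC1* was called without tissue 1-1, at a log2 fold change of 0.17 and an edgeR adjusted p of 0.012. All 5 ATPase genes found thus stood higher in every week 3 tissue, which 16.2% of all genes tested also did. Their log2 fold changes were 0.07 to 0.24. For *PSMC2* the gap was narrow, with a lowest week 3 value of 218.1 and a highest week 1 value of 216.4 FPKM-UQ. *PSMC4* was not analysed here.

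**Figure D2:**
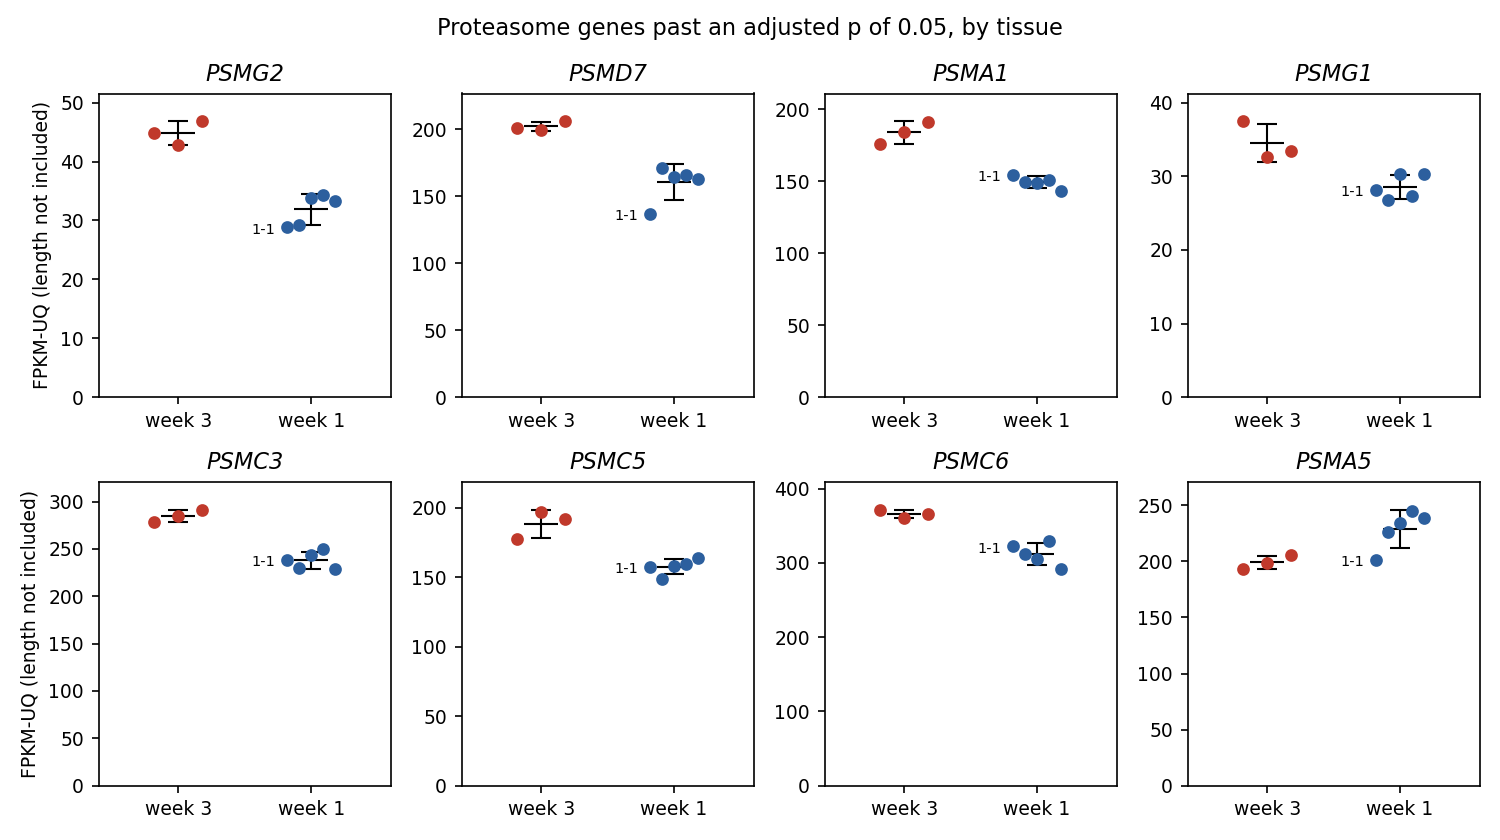
FPKM-UQ (vertical axis, from 0) of the 8 called genes is plotted for each tissue, week 3 in red (n = 3) and week 1 in blue (n = 5), with the mean as a bar and the SD as whiskers; tissue 1-1 is labelled. The week 3 points lie above all week 1 points for 7 genes, and for *PSMA5* they lie below 4 of the 5 week 1 tissues, with 1-1 among them.

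Among the scaffold and ubiquitin-binding subunits of the base, *PSMD1*, *PSMD2* and *PSMD4* had log2 fold changes near 0. Another ubiquitin receptor of the base, *ADRM1*, falls outside the symbol rule and was called higher, at 0.20. It is described with the partner genes below. *PSMD2*, a large scaffold that also binds ubiquitin-like domains, had 319, 319 and 325 FPKM-UQ at week 3 and 325, 298, 309, 319 and 304 at week 1, with a log2 fold change of 0.03 (SE 0.06, edgeR adjusted p = 0.74). *PSMD4*, a ubiquitin receptor, had 123, 124 and 132 at week 3 and 113, 123, 124, 114 and 127 at week 1, with 0.05 (SE 0.07, edgeR adjusted p = 0.60). The weeks overlapped for both. *PSMD1*, the other large scaffold, was at 0.03 (SE 0.06), and its span overlaps *HTR2B* on the opposite strand.

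In the lid, 1 of 7 genes was called (14.3%, against 23.5% of all genes tested). *PSMD7* (chromosome 11, 19074895 to 19080148, minus strand) encodes the subunit that pairs with the deubiquitinase *PSMD14*. It had 201, 199 and 206 FPKM-UQ at week 3 and 137, 171, 164, 166 and 163 at week 1. The weeks were well apart, and 1-1 was far below the other week 1 tissues. Means were 202 ± 3.47 at week 3 (SD, n = 3) and 160.3 ± 13.5 at week 1 (SD, n = 5), and the log2 fold change was 0.32 (SE 0.07, edgeR adjusted p = 0.009). It was called in all 8 fits that left out a tissue, with log2 fold changes of 0.27 to 0.34, the lowest being the fit without 1-1.

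*PSMD14*, the enzyme that cuts ubiquitin chains from the substrate, was not called. Its FPKM-UQ values were 131, 126 and 124 at week 3 and 107, 119, 122, 124 and 108 at week 1, with a log2 fold change of 0.12 (SE 0.07, edgeR adjusted p = 0.25). *PSMD11*, a lid subunit known from human stem cells to raise proteasome assembly, had 137, 128 and 142 at week 3 and 120.2, 125, 136, 135 and 139.9 at week 1, with 0.03 (SE 0.07, edgeR adjusted p = 0.78). The weeks overlapped broadly for *PSMD11*. The remaining lid genes *PSMD3*, *PSMD6*, *PSMD12* and *PSMD13* lay between -0.04 and 0.12.

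The ratio of *PSMD7* to *PSMD13*, both lid subunits, shows the unequal change without any scaling. It was 0.858, 0.861 and 0.877 at week 3 and 0.612, 0.696, 0.687, 0.663 and 0.706 at week 1. Both genes were chosen after their values were seen, so no test is given. The 3 week 3 ratios lie close together and above all 5 week 1 ratios, and 1-1 had the lowest.

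Activators that can replace the cap were represented by *PSME3* and *PSME4*, and the core inhibitor by *PSMF1*. None of the 3 was called by edgeR or DESeq2, where edgeR called 23.5% of all genes tested. An edgeR unadjusted p below 0.05, found for 5136 of all 14311 genes tested, was reached by 1 of the 3. This was *PSME4*, a large activator known in mammals for a role in histone breakdown. It had 66.6, 69.3 and 68.5 FPKM-UQ at week 3 and 67.6, 50.9, 57.5, 52.1 and 47.9 at week 1. Tissue 1-1 lay within the week 3 range and the other week 1 tissues below it. Means were 68.1 ± 1.36 at week 3 (SD, n = 3) and 55.2 ± 7.77 at week 1 (SD, n = 5). The log2 fold change was 0.29 (SE 0.10), and its edgeR adjusted p of 0.062 was the lowest among the genes not called.

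*PSME4* crossed the threshold under several other settings. Without 1-1 its log2 fold change was 0.37 with an edgeR adjusted p of 8.3e-05. With upper-quartile factors, library size alone and limma the log2 fold changes were 0.30 to 0.35, with adjusted p values of 0.042 to 0.049. *PSME3*, a nuclear activator, had 156, 148 and 154 FPKM-UQ at week 3 and 163, 143, 149, 148 and 138 at week 1, with a log2 fold change of 0.03 (SE 0.07, edgeR adjusted p = 0.79). *PSMF1*, an inhibitor of the core in vitro, had 115, 116 and 123 at week 3 and 121, 108, 110.0, 108 and 113 at week 1, with 0.06 (SE 0.06, edgeR adjusted p = 0.52). For all 3 genes tissue 1-1 was the highest of the week 1 tissues. *PSME1* and *PSME2*, the other activator genes of this family, were not analysed here.

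Among the 7 assembly chaperones, the spread of log2 fold changes was wider than in core or cap, with an SD of 0.282 against 0.14 in the core and 0.101 in the cap. Their standard errors ran from 0.06 to 0.14. *PSMG2* (chromosome 2, 97037931 to 97057123, minus strand), which works with *PSMG1* in building the alpha ring, had the highest log2 fold change of the 38 genes. It had 44.9, 42.7 and 46.8 FPKM-UQ at week 3 and 28.8, 29.2, 33.7, 34.3 and 33.4 at week 1. Means were 44.8 ± 2.05 at week 3 (SD, n = 3) and 31.9 ± 2.64 at week 1 (SD, n = 5), and the log2 fold change was 0.48 (SE 0.08, edgeR adjusted p = 0.0015).

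The weeks did not overlap for *PSMG2*, and the call was made in all 8 fits that left out a tissue. Its span overlaps *PTPN2* on the opposite strand over 9565 bases. Mean estimated counts, not scaled between tissues, were 813 at week 3 and 581 at week 1 for *PTPN2*. For *PSMG2* the unscaled means were 779 at week 3 and 477 at week 1. Without strand, reads from the shared bases cannot be assigned to one gene of the pair. A row named *7SK* also covers *PSMG2* on the opposite strand, over all its 19193 bases, and *PSMG4* over all its 4966. *PSMG4* lies far away on chromosome 2, at 66263596 to 66268561, so the listed span of *7SK* reaches across both positions. Such a span does not place a *7SK* gene at either one. Mean estimated counts of *7SK*, also unscaled, were 160 at week 3 and 96.4 at week 1. The overlaps are of annotated spans, and how many reads came from them was not tested. No fractions of reads entered the estimated counts of *PSMG2*. Its partner *PSMG1* (chromosome 1, 109260958 to 109269905, minus strand) had 37.5, 32.6 and 33.4 FPKM-UQ at week 3 and 28.2, 26.7, 30.3, 27.3 and 30.3 at week 1, with a log2 fold change of 0.26 (SE 0.08, edgeR adjusted p = 0.041). No tissues overlapped between the weeks, but the call was made in 2 of 8 fits that left out a tissue.

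The other pair of core chaperones, *PSMG3* and *PSMG4*, were not called. *PSMG3* was at 0.13 (SE 0.08). *PSMG4* was at -0.27 (SE 0.14, edgeR adjusted p = 0.19), with 16.5, 17.3 and 18.5 FPKM-UQ at week 3 and 15.4, 25.2, 19.3, 21.9 and 22.3 at week 1. Tissue 1-1 lay below the week 3 range and the other 4 week 1 tissues above it. The ratio of *PSMG2* to *PSMG4*, picked after the values were seen, was 2.72, 2.48 and 2.53 at week 3 and 1.88, 1.16, 1.75, 1.57 and 1.5 at week 1.

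The chaperones of the cap base, *PSMD5*, *PSMD9* and *PSMD10*, carry cap names but are absent from the finished particle. *PSMD10* had 23.9, 27.8 and 28.9 FPKM-UQ at week 3 and 26.2, 33.2, 33.8, 31.6 and 37.4 at week 1, with a log2 fold change of -0.29 (SE 0.11, edgeR adjusted p = 0.087). *PSMD5* and *PSMD9* were at -0.12 (SE 0.10) and 0.02 (SE 0.06). None of these 3 was called. Without 1-1, *PSMD10* and *PSMG4* had log2 fold changes of -0.35 and -0.36, with edgeR adjusted p values of 0.0022 and 0.0069. *PSMC3IP*, the gene that matches by name only, was at 0.16 (SE 0.15, edgeR adjusted p = 0.50).

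**Figure D3:**
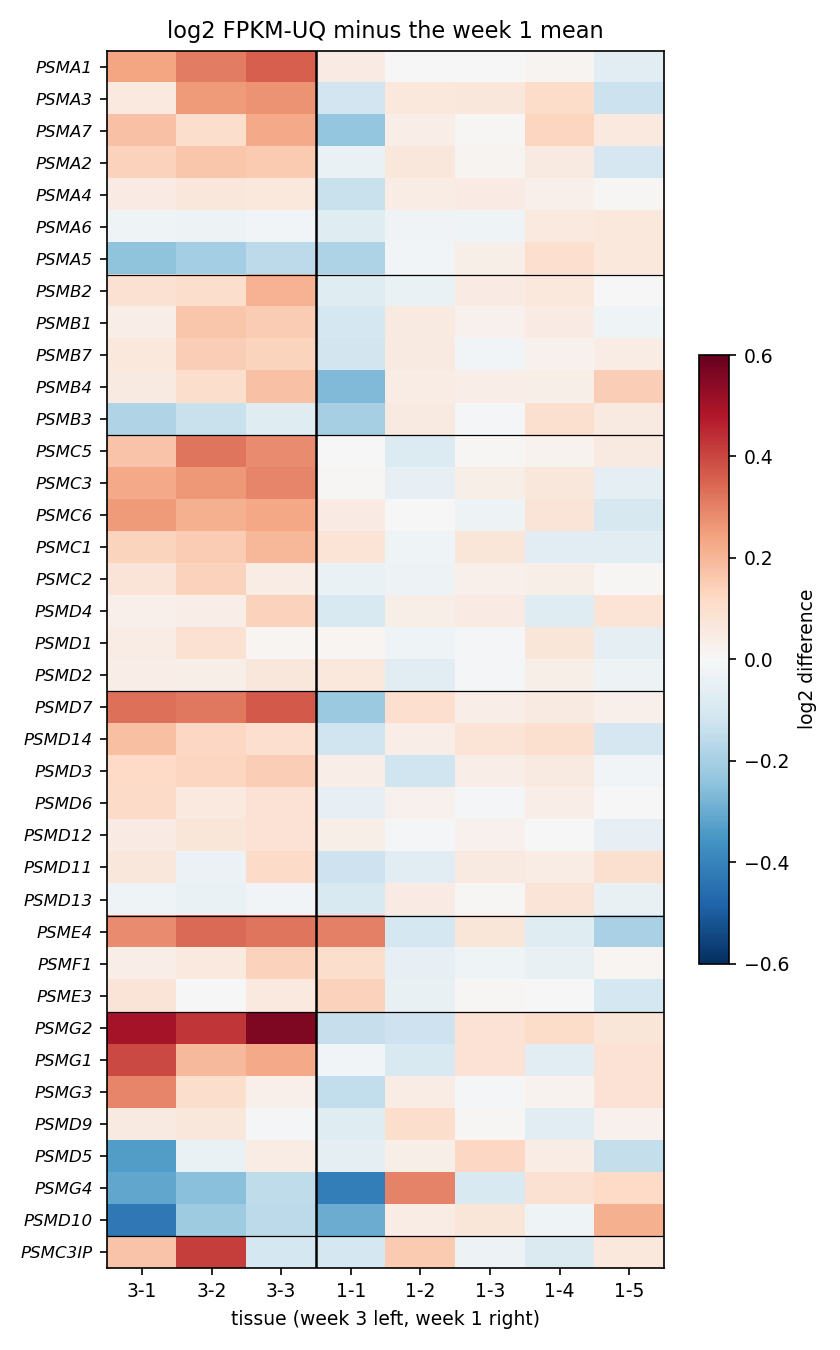
Each cell shows log2 FPKM-UQ of a gene (rows, by class) in a tissue (columns, week 3 left and week 1 right) minus the mean of the 5 week 1 tissues, with red above and blue below. *PSMG2*, *PSMD7* and *PSMA1* are red in all 3 week 3 tissues. Tissue 1-1 is blue for every core gene except *PSMA1*, and it is the lowest of week 1 for 9 of the 12. It is red for *PSME4*, *PSMF1* and *PSME3*.

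Tissue 1-1 bears on many of these values. It was the lowest week 1 tissue for 9 of 12 core genes, 7 of 15 cap genes and 5 of 10 activator, inhibitor and chaperone genes, and the highest for 1, 3 and 3 of them. Without it, 13 of the 38 genes were called, 9 higher and 4 lower, against 38.6% of all genes called without it and 19.1% called higher. All 8 genes of the full comparison were among the 13, joined by *PSMC1* and *PSME4* as higher and by *PSMB3*, *PSMD10* and *PSMG4* as lower. Leaving out tissue 3-2 or 3-3 instead left *PSMA1*, *PSMD7* and *PSMG2*, where 14.6% and 14.5% of all genes were called. These 3 genes were called in every one of the 8 fits that left out a tissue.

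Spread among tissues of a week was small for these genes. The median coefficient of variation of FPKM-UQ over the 38 genes was 3.23% at week 3 (n = 3) and 5.08% at week 1 (n = 5), and 3.76% at week 1 without 1-1 (n = 4). The standard errors of the log2 fold changes ran from 0.06 to 0.15 with a median of 0.06. Several log2 fold changes near 0.1 are thus less than 2 standard errors from 0 and were not resolved with these 8 tissues.

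Summed over genes, the proteasome held a larger share of each week 3 tissue's counts. The 37 genes held 0.599%, 0.606% and 0.613% of the estimated counts at week 3 and 0.552%, 0.523%, 0.555%, 0.544% and 0.534% at week 1. The weeks did not overlap, and the ratio of the means was 1.12. The cap genes held 0.330% to 0.332% at week 3 and 0.277% to 0.304% at week 1, and the core genes 0.205% to 0.216% at week 3 and 0.187% to 0.198% at week 1. The chaperones held 0.0293% to 0.0296% at week 3 and 0.0258% to 0.0278% at week 1. The activators and the inhibitor overlapped between the weeks through tissue 1-1, at 0.0342% to 0.0352% at week 3 and 0.0288% to 0.0364% at week 1.

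These shares are relative to all counts and so move with the genes that take most of them. The mitochondrial genome's 16 genes held 4.65% to 4.82% at week 3 and 5.52% to 6.39% at week 1, and the share of the 10 highest genes was also lower at week 3. With library size alone in place of TMM factors, the median log2 fold change was 0.17 for the proteasome genes and 0.06 for all genes, a shift of 0.07 for all genes. Under this scaling 11 of the 38 were called (28.9%), against 24.2% of all genes tested. Of the 38, 11 were higher and 0 lower, against 7 higher and 1 lower with TMM. Over all genes 2169 were then higher and 1295 lower, against 1645 higher and 1722 lower with TMM.

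**Figure D4:**
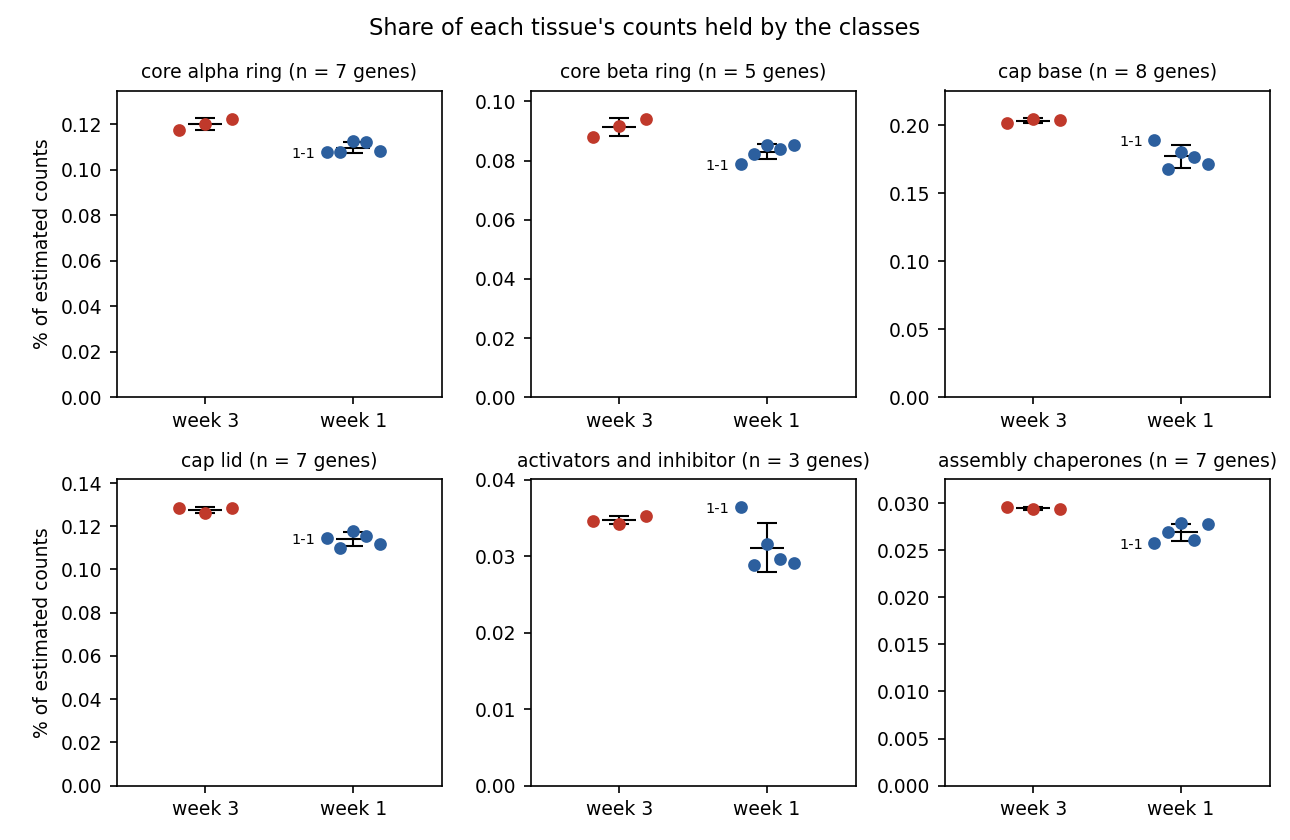
The percent of each tissue's estimated counts held by each class (vertical axes, from 0, on a scale of their own per class) is plotted for week 3 in red (n = 3) and week 1 in blue (n = 5), with mean and SD. For every class except the activators and inhibitor, all week 3 points lie above all week 1 points, and in that class tissue 1-1 is the highest of all 8.

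The proteasome works with a wider set of genes, and 36 of these were listed as partners, of which 29 were found and tested. Of the 29, 4 were called (13.8%, against 23.5% of all genes tested), all higher at week 3, with a median log2 fold change of 0.05. Without tissue 1-1, 10 of the 29 were called (34.5%, against 38.6% of all genes), 9 higher and 1 lower. Without tissue 3-1, 3-2, 3-3 or 1-3 the number was 2 (6.9%), where 14.9%, 14.6%, 14.5% and 19.1% of all genes were called. Of genes that bind or import the particle, *ADRM1*, a ubiquitin receptor of the cap base, had 128, 133 and 131 FPKM-UQ at week 3 and 104, 118, 111, 112 and 119.8 at week 1, with a log2 fold change of 0.20 (SE 0.06, edgeR adjusted p = 0.045). *AKIRIN2*, known in human cells to bring proteasomes into the nucleus, had 85.7, 82.7 and 86.9 at week 3 and 72.5, 70.6, 75.8, 79.1 and 65.7 at week 1, with 0.21 (SE 0.07, edgeR adjusted p = 0.046). For both genes the lowest week 3 value was above the highest week 1 value. Both calls lie close to the threshold and were lost in 5 and 6 of the 8 fits that left out a tissue.

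Other particle-bound factors did not pass the test. The deubiquitinases of the cap *USP14* and *UCHL5* were at 0.05 (SE 0.07, edgeR adjusted p = 0.65) and 0.06 (SE 0.07, edgeR adjusted p = 0.59). *USP14* had 98.3, 96.8 and 96.0 FPKM-UQ at week 3 and 98.3, 88.9, 92.9, 98.6 and 85.8 at week 1. *UCHL5* had 72.1, 73.1 and 74.5 at week 3 and 61.8, 71.5, 74.8, 70.1 and 69.8 at week 1. Their weeks overlapped. The core maturation factor *POMP* had 139, 143 and 133 at week 3 and 133, 135, 138, 144 and 141 at week 1, with -0.01 (SE 0.06, edgeR adjusted p = 0.90), and the sign of this value near 0 turned under scaling by library size alone and under 4 other settings.

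In mammalian cells the transcription factor *NFE2L1* drives proteasome genes as a dimer with a small Maf protein. *NFE2L1* had 499.7, 491 and 509 FPKM-UQ at week 3 and 539, 559, 513, 535 and 519 at week 1. All week 3 tissues lay below all week 1 tissues, but the log2 fold change of -0.11 (SE 0.06, edgeR adjusted p = 0.22) was not called. Of the small Maf genes, *MAFF* had 176, 165 and 171 at week 3 and 119, 129, 115, 125 and 128 at week 1, with a log2 fold change of 0.46 (SE 0.06, edgeR adjusted p = 0.00032). *MAFK* had 58.0, 51.8 and 57.0 at week 3 and 45.0, 39.6, 36.0, 41.7 and 37.8 at week 1, with 0.46 (SE 0.08, edgeR adjusted p = 0.0022). Both were called in all 8 fits that left out a tissue. The third, *MAFG*, was at -0.25 (SE 0.12, edgeR adjusted p = 0.16).

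Genes that supply ubiquitin or deliver tagged proteins were not called. Of the 13 tested, edgeR and DESeq2 called none, where edgeR called 23.5% of all genes tested. With edgeR, 3 of the 13 had an unadjusted p below 0.05, as did 5136 of all 14311 genes tested. Among these 3 were *VCP*, the ATPase that extracts tagged proteins, at 0.14 (SE 0.06, edgeR adjusted p = 0.13), and its cofactor *NPLOC4* at -0.16 (SE 0.06, edgeR adjusted p = 0.081). The polyubiquitin gene *UBB* was at 0.17 (SE 0.08, edgeR adjusted p = 0.19).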

How the data were processed

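Per the methods, RNA was isolated with TRIzol, sequenced on an Illumina NovaSeq and processed in Partek Flow. The submitters' processing notes name STAR 2.7.3a, Partek and the builds galGal6 and GRCg6a, whose coordinates are printed. The authors deposited estimated counts per gene (80.98% whole numbers, 17775 genes, not normalized) and a normalized signal, FPKM-UQ, for 15394 genes. Over every gene this signal equals the count plus 1, divided by 1 factor per tissue, within 0.000787%.

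The rounded counts were fitted in edgeR 4.0.16 (quasi-likelihood test, two-sided, with TMM and filterByExpr) under R 4.3.3, week 3 over week 1, with all 8 tissues and no covariate. P-values were Benjamini-Hochberg adjusted over the 14311 genes tested. The pipeline was tested on simulated data whose changes were larger than that of any proteasome gene. That test does not show how well changes as small as these are found. Alternatives were DESeq2 1.42.0, upper-quartile factors, library size alone, no further filter, a mean FPKM-UQ of at least 1, limma 3.58.1 on log2(FPKM-UQ + 1) or + 0.1, a replicate block, the study's rule of an unadjusted p below 0.05 with a fold above 1.5, and leaving out each tissue. Tables were made with Python 3.11.15.

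Genes, classes, partner and marker lists were chosen with earlier results of these data known. Values in every tissue are given for subunits with catalytic, ubiquitin-binding or activator roles and for *PSMD11*. They are also given for the called genes with the 5 largest rises and falls, and for named partners with all called ones. Of the 6 named partners, *SEM1* was not found and has no values. A called gene beyond the 5 rises (*PSMC6*, and *PSMC3* or *PSMC5*, tied), *PSMA4*, *PSMB3*, *PSMD10*, *PSMG4* and the ratios were added after their values were seen. Of 36 partners, 29 were found. Values of some single listed genes are not reported here. *PSMA8*, *PSMB5*, *PSMB6*, *PSMB8* to *PSMB11*, *PSMC4*, *PSMD8*, *PSME1* and *PSME2* were not analysed here. Each tissue was a separate culture, so the tests set the difference between the weeks against the spread between cultures. Whether that spread includes differences between cell harvests is not known. Precision is given as SD over tissues or as a standard error of the log2 fold change. That standard error is the absolute log2 fold change divided by the square root of edgeR's quasi-likelihood F statistic.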

Additional observations from a re-analysis of the deposited data

Results flagged for a closer look

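Over single proteasome genes, single partner genes and the class shares of counts, 56 groups of the 5 week 1 tissues were tested. Of these, 2 held a tissue far from the others by Dixon's criterion, which chance alone meets in about 1 in 20 groups. Both were low values of tissue 1-1 at week 1. *PSMA4*, an outer ring subunit of the core, had 140.8 FPKM-UQ in tissue 1-1 and 154.8 to 159.6 in the other 4 week 1 tissues. *PSMD7*, a lid subunit of the cap, had 136.8 FPKM-UQ in tissue 1-1 and 163.1 to 171.2 in the other 4. Without tissue 1-1 the log2 fold change of *PSMD7* was 0.27 (edgeR adjusted p = 0.0001), against 0.32 with it, and that of *PSMA4* was 0.01, against 0.04 with it.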

How the results depend on the processing

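DESeq2 and the filter on a mean FPKM-UQ of at least 1 left all 38 proteasome genes and the 8 partners whose tissue values are given on their side of the threshold, and both called the same 8 proteasome genes. Under the study's fold rule the counts called were 0 for all proteasome genes, core, cap, activators with chaperones, and partners, and 2090 for all genes. Core calls (2 in the full comparison) were 1 with upper-quartile factors, 4 with library size alone, 1 with no further filter and 1 with limma at either added constant (+ 1 or + 0.1). Of all genes, 23.7%, 24.2%, 18.4%, 22.3% and 22.1% were called under these settings, in this order. With no further filter, calls were 1 among activators and chaperones and 2 among partners. The median log2 fold change of the proteasome genes was 0.17 with library size alone, and *PSMA6*, *PSMD13* and *POMP* turned to 0.03, 0.03 and 0.05. *POMP* was also at 0.00 with limma at either constant and between -0.04 and 0.02 when 1 tissue was left out, above 0 without week 3 replicate 3.

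Leaving out 1 tissue gave 3 to 13 proteasome calls, 1 to 3 in the core, 1 to 5 in the cap, 1 to 5 among activators and chaperones, 2 to 10 among partners and 2119 to 5498 over all genes. The highest counts came without tissue 1-1.

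Tissues with the same replicate number did not deviate together: their deviations from the week means correlated at 0.0248, -0.0102 and 0.00284. Tissues with different numbers correlated at -0.0509 to 0.0346. With so few tissues this cannot show whether same-numbered tissues shared a harvest. With the numbers as a replicate block, calls were 2 among proteasome genes (*PSMD7* and *PSMG2*, 5.26%) and 2073 over all genes (14.5%). They were 0 in the core, 1 in the cap and 1 among activators and chaperones. *PSME3* turned to -0.01 and *POMP* to 0.01 under the block. Numbers 4 and 5 exist only at week 1, so under the block those tissues do not enter the estimate of the difference between the weeks. The cause of these changes was not tested. Standard errors of 0.06 and above limit what these 8 tissues resolve.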
